A study of Mus musculus with 26 samples.

Results

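The proteasome genes were taken from the GRCm38.p6 gene table as the protein-coding genes whose symbol is Psm, a letter from a to g and a digit. The rule found 51 of 21887 protein-coding genes. Of these, Psmc3ip and Psme3ip1 encode proteins that bind a proteasome protein and are no part of the proteasome, so they were counted apart. The other 49 genes comprise 8 of the alpha ring, 8 of the beta ring, 3 immunoproteasome genes (Psmb8, Psmb9 and Psmb10), 6 ATPases, 14 non-ATPase genes of the regulatory particle and its chaperones, 5 activator genes, 1 inhibitor gene and 4 assembly chaperones. They lie on 16 chromosomes, with 9 of them on chromosome 11.

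H3K4me3, a histone mark of active and poised start sites, was profiled by ChIP-seq in Early-B cells and in the mouse progenitors they came from. Early-B cells were Ebf1-/- progenitors that expressed EBF1 from the MigR1-EBF1.ER vector and were kept for 2 days on OP9 stroma, a mouse stromal cell line, in medium that held IL-7, SCF and FLT3-L, with 4-O-Hydroxy-tamoxifen as the inducer. The cells they were set against were Ebf1-/- progenitors, whose culture the H3K4me3 labels do not describe. Both groups therefore lack the endogenous factor, and EBF1 in Early-B cells came from an inducible fusion. The labels used here give no age, sex or strain. The labels list 2 H3K4me3 samples and 2 input DNA samples per group, but 1 peak list stands for each group. No difference below can be set against replicate spread, and no test was possible. In bulk chromatin, fewer cells that carry the mark and less mark per cell cannot be told apart.

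The proteasome degrades proteins tagged with ubiquitin. Its barrel-shaped core has outer rings of alpha subunits and inner rings of beta subunits, 3 of which cut protein, and a regulatory particle with ATPases unfolds substrates and feeds them in. In lymphoid cells and under interferon, Psmb8, Psmb9 and Psmb10 replace the catalytic subunits encoded by Psmb5, Psmb6 and Psmb7, and the resulting immunoproteasome favours peptides for MHC class I. Most subunit genes are expressed in all cells.

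Promoters of the catalytic subunits are shown because they carried peaks in both lists, except at Psmb11, which is shown as a beta subunit gene with no peak. Each RefSeq sequence (GRCm38.p6) runs 5′ to 3′ from 250 bases before the start site to 50 from it. Capitals mark matches, on either strand, to searched motifs. For ETS factors the motif was CCGGAAG. The motif of NF-Y was CCAAT, and that of SP and KLF factors was GGGCGG. The YY1 motif was AAGATGG. The core of the antioxidant response element was TGANNNNGC, the STAT motif was TTCNNNGAA, and the TATA box was TATAAA. The NRF1 motif, the core of the interferon-stimulated response element and the NF-kB motif, each 10 bases long, were searched in the same way and none is in the windows shown. The windows are chr17:34197945-34198244 on the plus strand for Psmb8, chr17:34187281-34187580 on the minus strand for Psmb9, chr8:105938343-105938642 on the minus strand for Psmb10, chr14:54617946-54618245 on the minus strand for Psmb5, chr11:70525107-70525406 on the plus strand for Psmb6 and chr14:54625060-54625359 on the plus strand for Psmb11. Psmb7 is not shown.
Psmb8: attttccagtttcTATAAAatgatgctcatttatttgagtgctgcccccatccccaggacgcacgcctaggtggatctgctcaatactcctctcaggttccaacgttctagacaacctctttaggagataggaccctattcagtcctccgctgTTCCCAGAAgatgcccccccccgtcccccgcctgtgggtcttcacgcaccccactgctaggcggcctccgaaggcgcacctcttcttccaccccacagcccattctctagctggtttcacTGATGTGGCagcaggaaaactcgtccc
Psmb9: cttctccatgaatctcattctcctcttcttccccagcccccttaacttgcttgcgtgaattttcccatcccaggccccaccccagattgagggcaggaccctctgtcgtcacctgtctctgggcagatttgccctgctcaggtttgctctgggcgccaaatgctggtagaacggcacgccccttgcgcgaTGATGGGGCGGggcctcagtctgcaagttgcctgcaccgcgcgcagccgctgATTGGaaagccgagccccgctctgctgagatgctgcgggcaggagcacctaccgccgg
Psmb10: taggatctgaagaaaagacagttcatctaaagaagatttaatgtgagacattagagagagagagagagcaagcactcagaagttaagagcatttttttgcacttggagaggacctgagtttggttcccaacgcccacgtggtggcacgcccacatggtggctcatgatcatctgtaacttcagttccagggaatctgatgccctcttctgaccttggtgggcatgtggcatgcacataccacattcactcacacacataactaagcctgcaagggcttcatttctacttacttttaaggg
Psmb5: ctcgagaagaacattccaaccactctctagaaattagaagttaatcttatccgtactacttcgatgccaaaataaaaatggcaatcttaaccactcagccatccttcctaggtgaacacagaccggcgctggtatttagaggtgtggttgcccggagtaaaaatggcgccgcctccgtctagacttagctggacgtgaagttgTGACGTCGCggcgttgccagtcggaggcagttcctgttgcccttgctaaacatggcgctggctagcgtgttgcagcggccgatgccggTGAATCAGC
Psmb6: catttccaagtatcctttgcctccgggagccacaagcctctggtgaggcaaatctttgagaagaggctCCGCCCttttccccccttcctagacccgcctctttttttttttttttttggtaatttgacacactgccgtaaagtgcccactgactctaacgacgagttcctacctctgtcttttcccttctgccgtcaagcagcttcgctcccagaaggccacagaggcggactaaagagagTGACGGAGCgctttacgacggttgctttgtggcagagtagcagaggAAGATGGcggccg
Psmb11: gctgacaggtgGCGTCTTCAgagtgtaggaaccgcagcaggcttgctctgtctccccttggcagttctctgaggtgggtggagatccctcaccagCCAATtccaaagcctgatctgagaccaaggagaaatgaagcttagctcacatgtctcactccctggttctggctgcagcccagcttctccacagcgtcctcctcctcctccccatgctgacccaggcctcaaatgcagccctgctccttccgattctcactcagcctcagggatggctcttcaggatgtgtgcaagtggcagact

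In the Psmb9 promoter the antioxidant core and the SP/KLF match overlap, and the NF-Y match lies on the opposite strand close to the start. The Psmb10 window holds none of the motifs. Its GC content was 45.7%. Psmb8 has a TATA box match, but far upstream of the listed start. The antioxidant core, through which NFE2L1 is known to raise proteasome genes, has few fixed letters and is common. It was found at 23 of the 41 members in the promoter table (56.1%), against 45.5% of all 17492 protein-coding genes there and 47.3% of those with a peak in both lists. Only 38 of the 41 members were themselves in both lists, as Psma6, Psmf1 and Psmb11 were not, so here and below those sets differ. These matches are letters in a window and were not tested as sites.

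Over the other motifs, the members' promoters held CCGGAAG at 14 genes (34.1%), against 12.9% of all and 20.6% of those in both lists. The carriers were Psma6, Psmc1, Psmc2, Psmc6, Psmd2, Psmd4, Psmd6, Psmd11, Psmd12, Psmd13, Psme3, Psme4, Psmg1 and Psmg3. The ATPase genes Psmc4 and Psmc5 held no match. AAGATGG was present at 8 genes (19.5%, against 7.18% and 8.23%), the NRF1 motif at 7 (17.1%, against 7.17% and 11.6%) and the interferon-stimulated core at 5 (12.2%, against 3.94% and 3.78%). The carriers of the interferon-stimulated core were Psmb3, Psmd4, Psmd9, Psmg4 and Psme1, an activator subunit known to respond to interferon. Psme2, the other gene of the interferon-inducible cap, and the immunoproteasome genes Psmb8, Psmb9 and Psmb10 did not hold it. GGGCGG was found at 56.1% of members, against 49.2% of all and 68.4% of those in both lists. CCAAT was found at 34.1% of members, against 42.3% of all and 43.0% of those in both lists. TATAAA was found at 9.76%, against 14.8% of all but 8.37% of those in both lists. TTCNNNGAA was found at 7.32%, against 8.92% and 7.87%, and the NF-kB motif at no member, against 0.480% and 0.454%. Median GC content was 57.3% for the members, against 56.3% for all genes in the table and 61.0% for those in both lists.

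A gene was placed by peaks that came within 1 kb of either end of its span. By this rule 45 of the 49 proteasome genes had a peak in both lists, where 53.5% of all protein-coding genes did. No member was Early-B only (5.75% of all genes), 1 was progenitor only (2.34%) and 3 were in neither list (38.4%). All 45 pairs of end peaks overlapped each other, as did 97.5% over all genes in both lists. In both lists 43 of the 45 end peaks had a fold enrichment of at least 10, against 71.9% of all genes in both lists, the exceptions being Psme2b in both lists and Psmd10 in Early-B.

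The 4 genes outside the shared class fell into different situations. Psmf1, which encodes an inhibitor of the core particle, had a 2741-bp Early-B peak and a 3136-bp progenitor peak at its RefSeq start site. These peaks lay inside the annotated span, 1921 bp from its end in Early-B and 2189 bp in progenitors, and so outside the window. At Psma6, an alpha subunit gene with 2 listed start sites, the strong peaks lay at the inner site, at 4876 bp in Early-B and 3980 bp in progenitors. Its progenitor-only class rested on a 478-bp peak 321 bp from the outer end, with a −log10 p of 1.28. With start sites added to the gene ends, a setting chosen after seeing the data, both genes were in both lists. So were 47 of 49 members, against 56.1% of all protein-coding genes.

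The remaining genes had no peak in the gene or within 2.5 kb of it in either list. Psmb11 encodes the thymoproteasome subunit known from cortical epithelium of the thymus. Psma8 encodes an alpha subunit known from male germ cells. Of the 45 members in both lists, Psme2b had the only end peaks that did not touch a gene end, at 265 bp from it in both lists. Psme2b resembles the activator gene Psme2, so reads could be placed at either, and this was not tested. Its peaks were 217 bp in Early-B and 225 bp in progenitors, with pileups of 22.9 and 33.0.

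The median length of the gene-end peak was 3244 bp in Early-B and 2819 bp in progenitors over the 45 genes, against 3222.5 bp and 2830.0 bp over all 11710 genes in both lists. The quartiles of the members were 2583 and 4028 bp in Early-B and 2255 and 3447 bp in progenitors. The peaks of 44 of the 45 members, all but Psme2b, reached at least 1800 bp in both lists, against 78.3% of all genes. That length lies just under the shortest of these, 1814 bp at Psmd6 in progenitors. The members' share therefore follows from the choice of length, and no weight rests on the comparison. The Early-B peak was the longer at 32 genes (71.1%) and the progenitor peak at 13, where over all genes 64.4% were longer in Early-B and 35.6% in progenitors. The median log2 ratio of Early-B over progenitor length was 0.15 for the members and 0.11 for all genes.

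**Figure D1:**
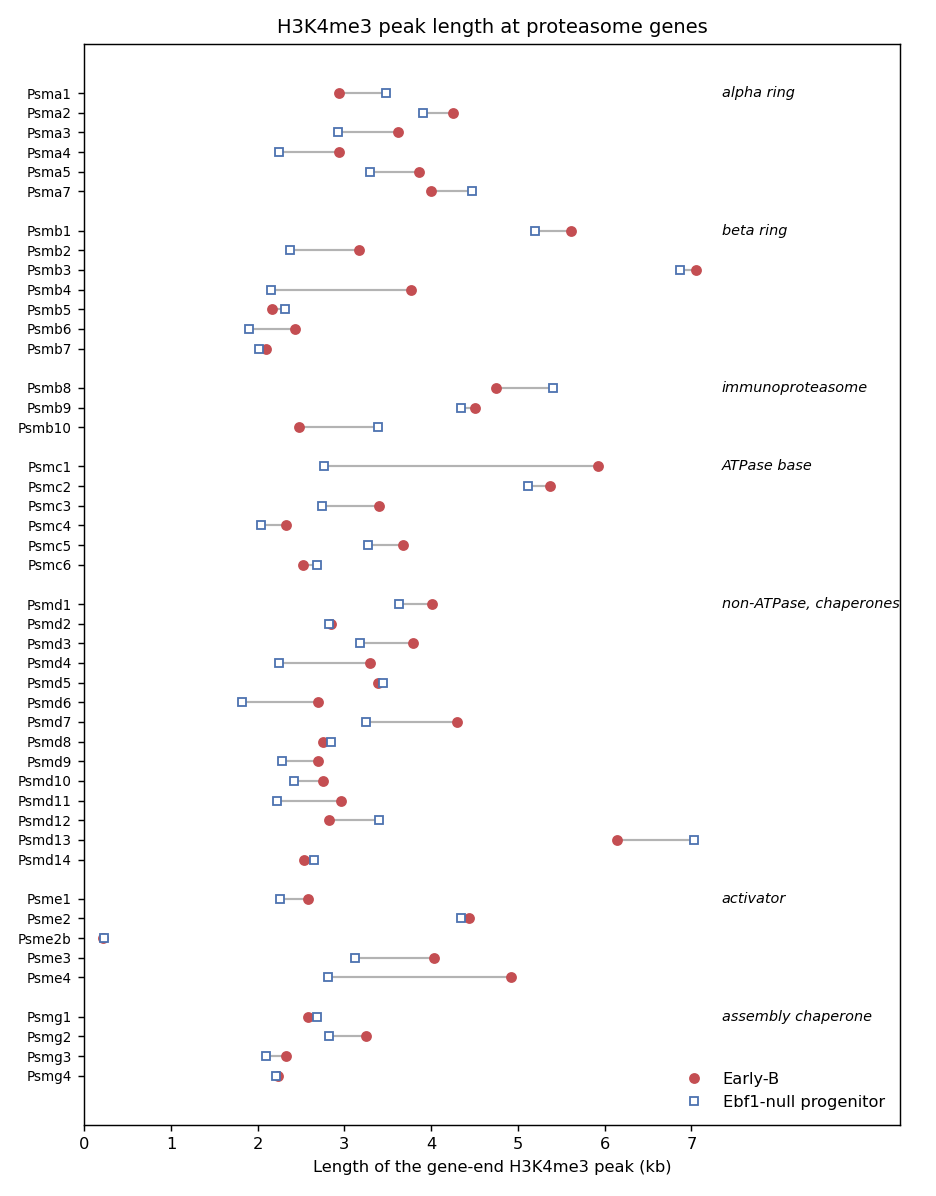
Length in kb of the gene-end H3K4me3 peak at the 45 proteasome genes with a peak in both lists, grouped by role (filled circles, Early-B; open squares, Ebf1-null progenitors; 1 peak list per group). Most pairs lie close together, Psmc1, Psme4 and Psmb4 have the widest relative gaps, and Psme2b stands apart at 217 and 225 bp.

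Large differences in length were few. At least 1.5 times longer in Early-B were 3 members, where 15.4% of all genes were, and none was at least 1.5 times longer in progenitors, where 6.01% were. The lengths were within 1.5 times of each other at 42 of 45 members, against 78.6% of all genes. The difference was at most 500 bp at 25 of 45 members, against 49.7% of all genes. With no replicate lists, whether these shares would recur is unknown.

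**Figure D2:**
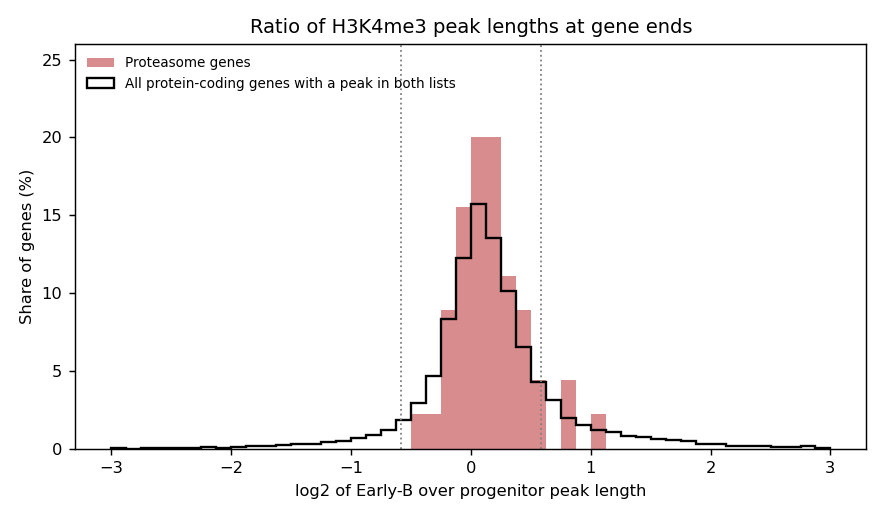
Distribution of the log2 ratio of Early-B over progenitor peak length, as a share of genes in percent, for the 45 proteasome genes (filled) and for all 11710 protein-coding genes with a peak in both lists (line; 63 genes beyond the axis are not drawn). Dotted lines mark a ratio of 1.5 either way, past which 3 members lie on the Early-B side and none on the progenitor side.

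The widest gap was at Psmc1, an ATPase gene of the regulatory particle, with 5922 bp in Early-B and 2763 bp in progenitors (ratio 2.14). Its Early-B peak reached 4382 bp upstream of the start site and the progenitor peak 614 bp. The progenitor list had a second, 1518-bp peak inside that upstream stretch, with a −log10 p of 6.57, so what counts as 1 peak in Early-B was 2 peaks in progenitors. Psme4, which encodes the large single-chain activator, had 4915 bp in Early-B and 2805 bp in progenitors (ratio 1.75). Psmb4, a beta subunit gene with no catalytic role, had 3770 bp in Early-B and 2155 bp in progenitors (ratio 1.75), or 87.3% and 55.2% of the gene. At both genes the Early-B peak reached farther on either side of the start.

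Next in order were Psmd6, a lid subunit gene, at a ratio of 1.49 and Psmd4, which encodes a ubiquitin receptor, at 1.47. At the other end were Psmb10 at 0.732, the lid gene Psmd12 at 0.831, the alpha gene Psma1 at 0.845, the lid gene Psmd13 at 0.875 and Psmb8 at 0.878. Psmb10 and Psmb8 of the immunoproteasome were thus among the 5 lowest ratios.

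By role, the lengths showed no group with a uniform direction. The alpha ring had the longer peak in Early-B at 4 of 6 genes in both lists, the beta ring without the immunoproteasome at 6 of 7, and the ATPases at 5 of 6, Psmc6 being the exception. The non-ATPase genes had it at 9 of 14, the activators at 4 of 5, the assembly chaperones at 3 of 4 and the immunoproteasome at 1 of 3. Over all genes in both lists the share was 64.4%, and these groups are too small to be read against it. The longest peaks were at Psmb3, with 7056 bp in Early-B and 6873 bp in progenitors, and at Psmd13, with 6146 bp in Early-B and 7025 bp in progenitors. Both stretches also hold the start of a neighbour, Pcgf2 beside Psmb3 and Sirt3 beside Psmd13. Psmb1 (5612 bp in Early-B, 5193 bp in progenitors) and Psmc2 (5367 bp and 5119 bp in the same order) were also among the 5 longest in each list, and their peaks met an end of Tbp and of Dnajc2.

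The shortest peaks after Psme2b in Early-B were at Psmb7 (2090 bp), Psmb5 (2169 bp), Psmg4 (2239 bp) and Psmg3 (2326 bp), the last pair encoding assembly chaperones. In progenitors they were at Psmd6 (1814 bp), Psmb6 (1900 bp), Psmb7 (2011 bp) and the ATPase gene Psmc4 (2036 bp). The constitutive catalytic genes lay below the members' median length in both lists. Psmb5 had 2169 bp in Early-B and 2310 bp in progenitors, Psmb6 had 2425 bp and 1900 bp, and Psmb7 had 2090 bp and 2011 bp, in that order.

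In the alpha ring, which gates the entry to the core, the peaks were 2936 to 4246 bp long in Early-B and 2247 to 4467 bp in progenitors. Psma4 had the highest ratio there, with 2936 bp in Early-B and 2247 bp in progenitors. Psma1 and Psma7 had the shorter peak in Early-B, Psma7 with 4000.0 bp in Early-B and 4467 bp in progenitors.

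Psmd14, which encodes the deubiquitinase of the lid, had 2535 bp in Early-B and 2648 bp in progenitors. Psmd2, a scaffold gene, had 2849 bp in Early-B and 2819 bp in progenitors. Psmd11, a lid gene, had 2956 bp in Early-B and 2224 bp in progenitors, and Psmd7, the partner of Psmd14 in the lid, had 4292 bp in Early-B and 3245 bp in progenitors. Of the genes for chaperones of the ATPase ring, Psmd5 had 3390.0 bp in Early-B and 3447 bp in progenitors, Psmd9 had 2691 bp and 2280.0 bp, and Psmd10 had 2749 bp and 2422 bp, in that order.

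Among the activators, Psme1 and Psme2, which together encode the interferon-inducible cap, differed in length from each other more than between the lists. Psme1 had 2583 bp in Early-B and 2255 bp in progenitors, and Psme2, whose peak also covers the start of Rnf31, had 4434 bp in Early-B and 4349 bp in progenitors. Psme3, the gene of the nuclear cap, had 4028 bp in Early-B and 3120.0 bp in progenitors. The core assembly chaperones Psmg1 to Psmg4 were near equal in the lists, with ratios from 0.962 at Psmg1 to 1.15 at Psmg2.

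The immunoproteasome genes were marked in both lists. Psmb9, which lies back to back with the peptide transporter gene Tap1, had an Early-B peak at chr17:34185442-34189949 (4508 bp, pileup 205) and a progenitor peak at chr17:34185737-34190084 (4348 bp, pileup 231). Both peaks cover the start sites of both genes, so they belong to the pair. Psmb8, on the far side of Tap1, had an Early-B peak at chr17:34196299-34201048 (4750 bp, pileup 134) and a progenitor peak at chr17:34196085-34201494 (5410 bp, pileup 103). These took in 87.5% of Psmb8 in Early-B and 100% in progenitors, and the far end of Tap1. Psmb10 had an Early-B peak at chr8:105936455-105938932 (2478 bp, pileup 189) and a progenitor peak at chr8:105936670-105940052 (3383 bp, pileup 234). The progenitor peak reached 1660 bp upstream and met an end of Lcat, while the Early-B peak reached 540 bp and did not.

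Within-list pileup placed Psmb9 and Psmb10 near the top of all genes. Over the 11710 genes in both lists, Psmb9 stood at percentile 98.6 in Early-B and 96.2 in progenitors, and Psmb10 at 96.7 and 97.1 in the same order. Psmb8 stood at percentile 62.5 in Early-B and 25.7 in progenitors. It was 1 of only 2 members, with Psmd4, whose pileup was higher in the Early-B list, a relation that 14.2% of all genes showed. The neighbour Tap2 did not share it, with a pileup of 136 in Early-B and 173 in progenitors. No source used here states how pileup was scaled between lists, so these values place a gene within its list and do not measure a change.

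**Figure D3:**
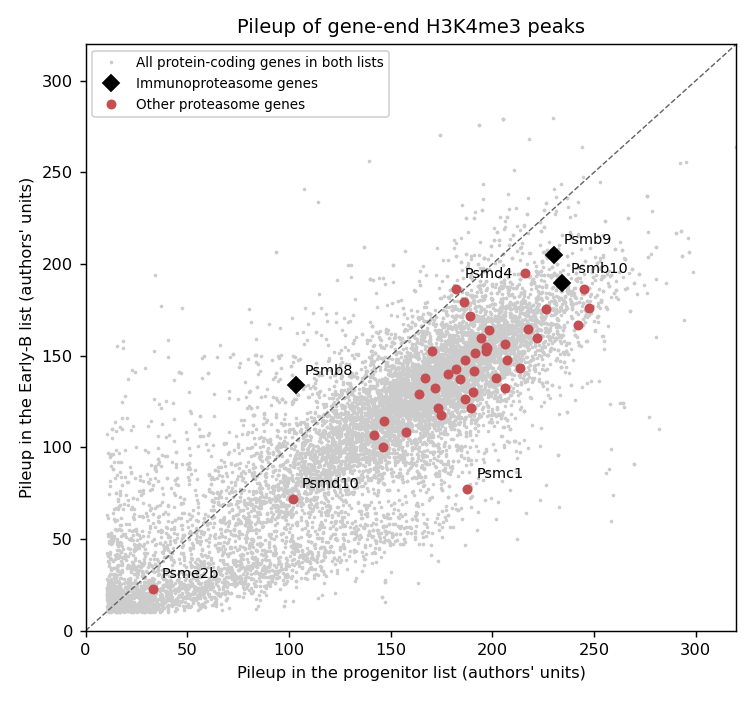
Pileup of the gene-end peak in the Early-B list (vertical) against the progenitor list (horizontal), in the units of the authors' peak caller, for the immunoproteasome genes (diamonds), the other proteasome genes (red circles) and all protein-coding genes in both lists (grey; 3 beyond the axes are not drawn). The dashed line marks equal values, above which Psmb8 (134 and 103) and Psmd4 (186 and 182) lie.

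As a set, the members had higher pileups than most genes with a peak. Their median was 143 in Early-B and 189.6 in progenitors, against 120 and 154 over all genes in both lists, and 37 and 39 of the 45 members lay above those medians. The highest were Psmb9, Psmb4, Psmb10, Psma7 and Psmd4 in Early-B, at 186 to 205, and Psmg2, Psma7, Psmd11, Psmb10 and Psmb9 in progenitors, at 231 to 247. Psma7, an alpha subunit gene, and Psmb9 and Psmb10 were in both of these groups. The lowest after Psme2b were Psmd10, an X-linked chaperone gene, at 71.8 in Early-B and 102 in progenitors, and then Psmc1 in Early-B at 77.6 and Psmb8 in progenitors at 103. Psmg4 (100.1 in Early-B, 146 in progenitors) and Psmd9 (107 and 142) completed the 5 lowest in each list. Psmc1 stood at percentile 26.6 in Early-B and 76.0 in progenitors, and its Early-B peak was the longer one.

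Peaks were placed around start sites where the promoter table gave one. Of 38 members in both lists with a listed start, 36 had it inside the end peaks of both lists, against 85.5% of all such genes, the exceptions being Psme2b and Psma3. At Psma3, an alpha gene, the end peaks lay at the outer end of the span, with pileups of 122 in Early-B and 173 in progenitors. Further peaks covered its listed start, 3158 bp long with a pileup of 157 in Early-B and 2925 bp long with a pileup of 200.5 in progenitors. Over the 36 genes the median reach was 1251 bp upstream and 1837 bp downstream in Early-B, and 893.5 bp upstream and 1702 bp downstream in progenitors. The peak reached farther downstream than upstream at 30 of 36 in Early-B and 29 of 36 in progenitors, against 74.5% and 78.0% over 8106 genes.

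**Figure D4:**
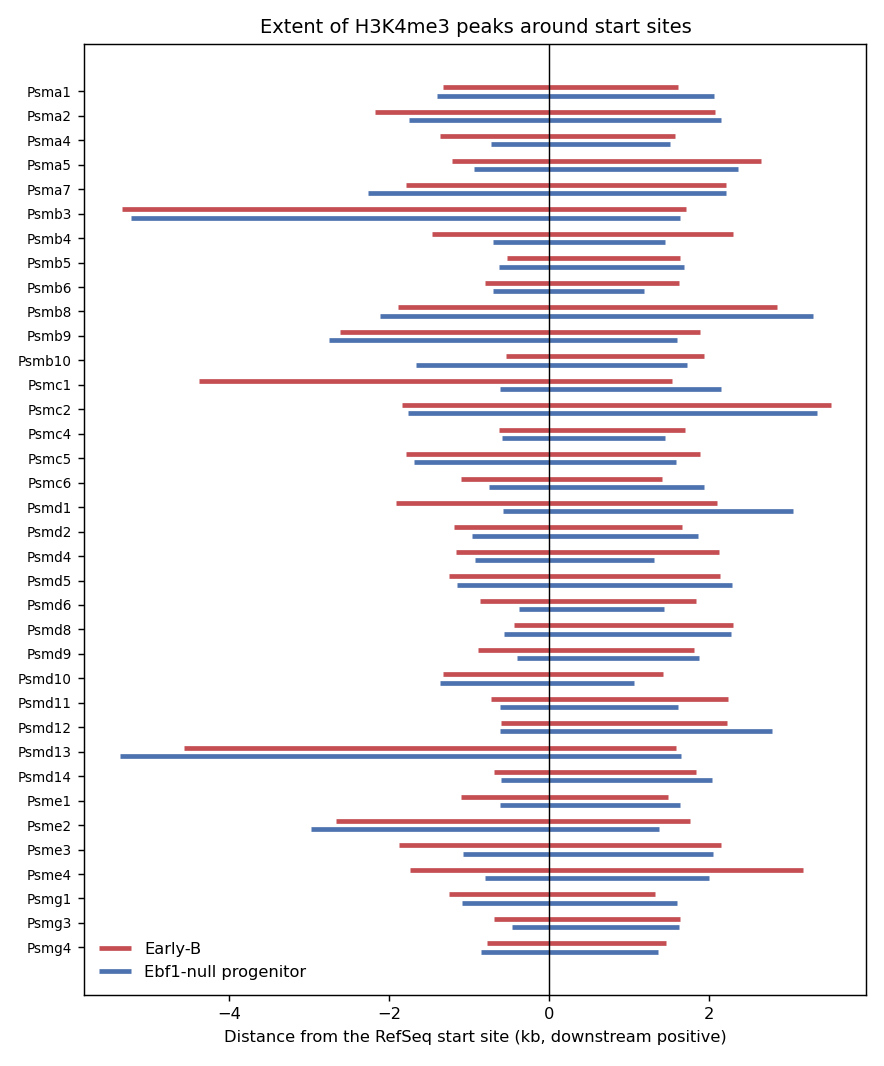
Extent of the gene-end peaks in kb around the RefSeq start site for 36 proteasome genes, drawn so that transcription runs to the right (upper bar, Early-B; lower bar, Ebf1-null progenitors). The bars of a gene largely coincide, Psmb3 and Psmd13 reach over 4.5 kb upstream in both lists, and Psmc1 reaches 4382 bp upstream in Early-B against 614 bp in progenitors.

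The Early-B peak ended farther upstream at 24 of the 36 members (66.7%) and farther downstream at 21 (58.3%), where over all such genes 69.1% and 56.8% did. The members' shares were thus near those of all genes. At Psmd1, a scaffold gene of the regulatory particle, the peak reached 1915 bp upstream and 2098 bp downstream in Early-B, against 580.0 bp and 3047 bp in progenitors.

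At several members the mark could not be assigned to 1 gene. The Early-B end peak covered an end of another protein-coding gene at 13 of 45 members (29.4% of all genes) and the progenitor end peak at 13 (28.0%), with 12 in both lists (27.2%). At 9 members both peaks covered a listed start of another gene (20.6%). These 9 were Psma2 with Mrpl32, Psma7 with Ss18l1, Psmb1 with Tbp, Psmb3 with Pcgf2, Psmb9 with Tap1, Psmc5 with Ftsj3, Psmd10 with Atg4a, Psmd13 with Sirt3 and Psme2 with Rnf31. Psma4, Psmc2, Psmg2 and Psmb8 met an end of AY074887, Dnajc2, Cep76 and Tap1 in both lists. Psmg1 met Brwd1 in Early-B only and Psmb10 met Lcat in progenitors only.

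Partners and regulators of the proteasome were likewise marked in both lists. Of 36 genes matched from a list of partners, feedback factors, ubiquitin genes, delivery factors and MHC class I genes, 35 were in both. Of all protein-coding genes 53.5% were. Ecpas, a proteasome-binding scaffold gene, was in neither by the gene-end rule, which does not see peaks inside the gene away from its ends. Tap1 enters this list with the same peaks as Psmb9, so the list is not independent of the members. The Early-B peak was the longer at 31 of the 35, where 64.4% of all genes in both lists had the longer peak in Early-B. It was so at all 4 feedback genes, with Nfe2l1, the factor that restores proteasome gene expression after inhibition, at 11759 bp in Early-B and 9032 bp in progenitors. It was so at all 5 ubiquitin genes and at 9 of 10 MHC class I genes, groups too small to be read against that share.

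Among overlapping peaks, the highest ratios in that list were at Nlrc5, the activator of MHC class I genes (6524 bp in Early-B, 2410 bp in progenitors), Ubqln2, a shuttle of ubiquitin-tagged proteins (3762 bp and 1558 bp), and Sem1, a small subunit of the regulatory particle (5458 bp and 3532 bp). The lowest were at Nploc4, a cofactor of the unfoldase Vcp (2388 bp in Early-B, 3188 bp in progenitors), and Txnl1, a thioredoxin that binds the proteasome (4054 bp and 4470 bp). Ufd1, another cofactor of Vcp (3590.0 bp in Early-B, 1600.0 bp in progenitors), and Tapbp, which encodes tapasin (3465 bp in Early-B, 3789 bp in progenitors), also had extreme ratios. At these genes the peaks chosen in the lists lay at opposite ends of the gene and did not overlap, so their lengths, counted above, do not compare the same peak. Pomp, the chaperone that matures the core, had 3119 bp and 2397 bp in the same order.

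The lists differ in size, which can bear on the counts. With equal list lengths, 45 members were still in both lists, where 52.0% of all genes were. At 32 of these members (71.1%) the Early-B peak was the longer, against 65.5% of all genes in both lists. The Early-B list held 48054 peaks over 83.3 Mb and the progenitor list 31414 over 56.0 Mb. Of 7 early B markers, 4 were Early-B only and 3 in both lists. Igll1 and Vpreb1 share 1 Early-B peak, and the progenitor peaks at Vpreb1 and Cd79a also cover starts of Top3b and Arhgef1. Of 5 markers of OP9 stroma, 3 (Sparc, Postn and Lox) were Early-B only and 2 in both. Of 5 T markers none was Early-B only, 2 were in both lists, 2 in neither and 1 (Gata3) progenitor only. Of 4 myeloid markers none was Early-B only, 1 was in both, 2 in neither and 1 (Mpo) progenitor only. Some markers in both lists had a weak progenitor peak that misses a q of 0.05. The −log10 q there was 0.107 at Col1a2, 1.28 at Cd3e and 0.499 at Cd14. The part of stromal chromatin in the values above was not tested.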

How the data were processed

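The lists of Early-B cells and Ebf1-null progenitors were each matched to their group by name. The submitters' processing notes name mm10 and GRCh38 as builds and, as tools, MACS 1.4.3 and Bowtie 1.1.2, with no roles. How replicates were pooled, how input DNA was used and which settings applied, the sources used here do not say. Pileup, as deposited, is a coverage signal of the authors' peak caller, and fold enrichment is the authors' ratio. The deposited −log10 p, and a score read as −log10 q, were recognised from values and order, since their headers are damaged. No read counts were used, so depth and counting error are unknown.

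Peak length is as deposited, in bp, and coordinates count from 1. A gene's peak was the one with the highest −log10 p within 1 kb of either end of its GRCm38.p6 RefSeq span, and percentiles are over genes in both lists. Start sites and promoters came from a RefSeq table that holds 41 of 49 members; Psma8, Psmb1, Psmb2, Psmb7, Psmc3, Psmd3, Psmd7 and Psmg2 are not in it. No test was run, since each group has 1 list. The code was tested on simulated peaks. Python 3.11.15, numpy 2.4.6, pandas 2.3.3 and matplotlib 3.10.9 were used.

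Named were members outside the shared class, the immunoproteasome, catalytic and tissue-restricted genes, the 5 extremes of length, pileup and ratio, members whose class depends on a setting, neighbours sharing a peak, and partners outside the shared class or with the 3 highest or lowest ratios. Other genes given as examples of a role, and Sem1, Pomp, Nfe2l1 and Tap2, were chosen after their values were seen. Members and lists were chosen with earlier results of these data known. Paaf1, of the partner list, was not analysed here.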

Additional observations from a re-analysis of the deposited data

How the results depend on the processing

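No paired analysis was possible because each group has 1 peak list, and for the same reason no replicate could be left out. The number of members in both lists was 45 of 49, and 43 to 47 with other windows (500 bp, 2.5 kb), stricter thresholds, equal list lengths, or peaks anywhere in the gene, where 38.5% to 61.0% of all genes were in both. By start sites alone it was 40 of 41, against 55.0% of all genes. The longer peak lay in Early-B at 31 to 33 members under these settings, at 26 of 40 by start sites alone (65%, against 64.2% of all genes) and at 23 of 31 without shared gene ends (74.2%, against 65.1%). Over the other settings the members' share was 70.2% to 72.7%, against 64.1% to 67.8% of all genes. The median log2 length ratio lay between 0.09 and 0.20 throughout, where the median over all genes lay between 0.11 and 0.13. By start sites alone it was 0.09 for the members and 0.11 for all genes, and with peaks anywhere in the gene 0.12 and 0.13, so whether the members exceed all genes depends on the rule. Single members changed class: Psme2b was progenitor only at a −log10 p of at least 10, Psmd10 was progenitor only at a fold of at least 10, and Psma6 was in neither list at a q of at most 0.05. At Psmb8 a 2.5 kb window takes the Tap2 peak instead, with 4443 bp in Early-B and 3847 bp in progenitors, which turns its direction.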

Other observations

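Some peaks inside the members lay away from their ends. Between the 2 listed starts of Psma6, the Early-B list had a 4404-bp peak with a pileup of 46.5 and the progenitor list a 3357-bp peak with a pileup of 22.8. Inside Psmd13, both lists had a narrow peak, 326 bp long in Early-B with a pileup of 27.0 and 336 bp long in progenitors with a pileup of 30.3, on nearly the same bases.

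The symbol matches that are no part of the proteasome were also in both lists. Psme3ip1, which encodes a nuclear partner of the activator PSME3, had 4811 bp in Early-B and 4303 bp in progenitors, and its peak also covered the start of Rspry1. Its pileup stood at percentile 99.8 in Early-B and 99.7 in progenitors. Psmc3ip, a gene of meiotic recombination, had 1973 bp in Early-B and 2098 bp in progenitors.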
